A study of Mus musculus with 4 samples.

Results

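The vascular endothelial cells (ECs) of the mouse testis were described from single-cell RNA-seq libraries of testes and of testicular organoids (TOs). A barcode was selected on the values of its own endothelial genes: it had at least 2 of Pecam1, Cdh5, Kdr, Tie1 and Egfl7 detected, with Pecam1 or Cdh5 among them, and no unique molecular identifier (UMI, 1 tagged transcript) of Ptprc, C1qa or Wt1. Barcodes were kept with 1000 to 5000 genes, no more than 20000 UMIs and a mitochondrial share of up to 10%. Of the 21262 kept testis barcodes, 74 were chosen by this rule, 46 in testis replicate 1 and 28 in testis replicate 2. They are called EC members here, and they were 74 of 41484 barcodes kept in the 4 libraries. The same rule was passed by 135 of the 20222 kept TO barcodes, 41 in TO replicate 1 and 94 in TO replicate 2.

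The TO libraries came from organoids that were built from dissociated testis cells of neonatal ICR mice, embedded in basement membrane extract on transwell inserts for the early culture and fed a medium with FSH and testosterone. The design text of the deposited samples gives day 28 of culture for the TOs, whereas the dissociation protocol of the labels gives day 21. The testis libraries came from untreated testes of day 28 mice. All 4 libraries were unsorted, no group carried a transgene or deletion, and the numbers of pooled organoids and animals per library are not given in the labels. The study describes independent organoid batches and calls the testes biological replicates, but no source ties a TO library to a batch. The p-values between TOs and testes measure the spread between these libraries. Those between testis classes measure the spread left once the difference between the testis libraries is taken out, as the classes come from the same libraries. The libraries held 106577822 and 119966959 UMIs for the TOs and 77016449 and 74988295 UMIs for the testes, and the median kept barcode had 5594 and 7603 UMIs in TOs and 2600.5 and 3251 UMIs in testes.

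Endothelial cells line blood vessels. They are held together by VE-cadherin (Cdh5), PECAM1 and claudin 5 (Cldn5), and VEGF, angiopoietin, Notch and TGF-beta family signals pattern them into arteries, capillaries and veins. In the testis the vessels run in the interstitium between the seminiferous tubules, and their endothelium is known as 1 part of the barrier between blood and tubule and as a source of factors for spermatogonial stem cells.

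Among the genes that selected the EC members, Pecam1, a junctional adhesion molecule, had 279 and 285 CPM (UMIs of the gene per 1000000 UMIs) in the summed EC members of testis replicates 1 and 2. Cdh5, the cadherin of endothelial adherens junctions, had 390 and 470 CPM, and Egfl7, a secreted factor of endothelial cells, had 543 and 447 CPM. Kdr, the main VEGF receptor, had 248 and 254 CPM. Tie1, an orphan receptor of the angiopoietin pathway, was the lowest with 45.6 and 53.9 CPM. These levels chose the cells and are a description without a test. They place Cdh5 and Egfl7 above Pecam1 and Kdr, and Tie1 below all of them, in both libraries. Of the EC members, 16 and 8 had exactly 2 of the 5 genes, and 30 and 20 had 3 or more. In the GENCODE vM21 annotation of GRCm38, Pecam1 lies at chr11:106654217-106750628 on the minus strand, Cdh5 at chr8:104101625-104144511 on the plus strand, Kdr at chr5:75932827-75978458 on the minus strand, Tie1 at chr4:118471191-118490061 on the minus strand and Egfl7 at chr2:26580014-26593120 on the plus strand.

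The endothelial label was checked with 33 endothelial genes that the rule did not use (Vwf, Cldn5, Esam, Emcn, Erg and others, called identity genes here). The median EC member had 14 of them in testis replicate 1 and 16.5 in testis replicate 2, and 37 of 46 and 26 of 28 EC members had at least 8. Only 5 and 2 EC members had fewer than 3, so 7 of 74 barcodes did not carry the label beyond the genes of the rule. The marker Vwf, von Willebrand factor, had 157 and 53.9 CPM and was found in 19 of 46 and 5 of 28 EC members. Markers of other classes varied. Of the macrophage panel genes, Ptprc and C1qa were at 0 by the rule, and of the other 3 only Cd74 had UMIs (2 UMIs in testis replicate 1). The 5 Sertoli panel genes summed to 65.9 and 46.2 CPM (Aard the most abundant, Cldn11 and Rhox8 in 2 EC members each of testis replicate 1 only, Sox9 at 0 in both libraries and Wt1 at 0 by the rule), the 5 Leydig genes summed to 40.6 and 15.4 CPM, and the pericyte list (Rgs5, Notch3, Cspg4, Higd1b, Kcnj8, Pdgfrb) to 15.2 CPM and 0. Ebf1, a transcription factor gene and the most abundant of the stromal panel, had 431 and 485 CPM. Scrublet, a doublet caller, marked 8 of 46 and 6 of 28 EC members, a larger share than the 9.75% and 9.46% of all barcodes in those libraries. No barcode sequence of an EC member occurred in more than 1 library's members, although 30 to 55 barcodes were shared by pairs of libraries.

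At the edge of the rule, the 24 testis EC members with exactly 2 rule genes had a median of 10 identity genes, and 15 of them had at least 8. The 302 testis barcodes just outside, with Pecam1 or Cdh5 as their only rule gene, had a median of 1 identity gene, and 6 of them had at least 8. The other edge was Wt1, a transcription factor gene best known from Sertoli cells. In testis replicates 1 and 2, 95 and 64 barcodes met every other condition but had a UMI of Wt1, and all 159 of them had at least 8 identity genes, with medians of 22 and 23.5. Their Wt1 level of 507 and 357 CPM was set in part by their choice, since each had to hold a Wt1 UMI. The Sertoli panel barcodes, chosen partly by Wt1 as well, had 419 and 479 CPM, and the levels are not a test of likeness. Of the barcodes failed by Wt1 alone, 2 and 1 held Sox9 and 0 and 1 held Cldn11, both Sertoli genes. They were deeper than the EC members, with medians of 5375 and 8374.5 UMIs against 3492.5 and 3770.5.

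Cldn5 reached 3095 CPM in the barcodes failing by Wt1 in each replicate, above the 1952 and 2326 CPM of the EC members. Without the Wt1 condition 233 testis barcodes would have passed, 141 and 92, against 74 with it. The EC members held a median of 10.6% and 8% of the kept UMIs of the identity genes, against 60.6% and 56.1% without the condition on Wt1. Dcn, a proteoglycan gene of fibroblasts, had 208 and 100 CPM in the EC members, with its UMIs in only 4 and 1 barcodes, and 1.79 and 1.87 CPM in the barcodes failed by Wt1 alone. Where the Wt1 transcripts came from was not tested.

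**Figure D1:**
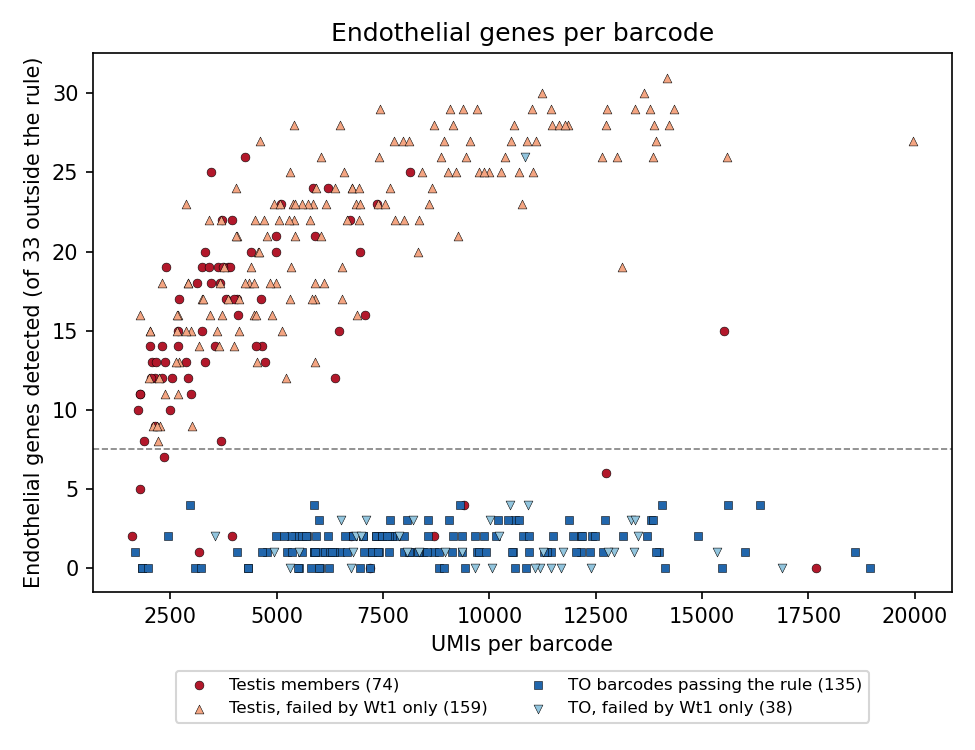
UMIs per barcode (x axis) and number of the 33 identity genes detected (y axis) for testis and TO barcodes that passed the rule or failed it by Wt1 alone, where each point is 1 barcode and the dashed line separates 7 from 8 genes. Testis EC members and the testis barcodes failed by Wt1 alone lie mostly above the line, whereas the 135 TO barcodes that passed the rule hold at most 4 of these genes.

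The TO barcodes that passed the same rule did not carry the other endothelial genes. They had a median of 1 identity gene in both TO libraries, the highest value was 4, and 0 of 135 had at least 8, which allows a share of up to 2.22%. At 1500 UMIs per barcode the testis EC members had means of 8.80 and 9.32 identity genes, against 0.488 and 0.362 for the TO barcodes. The library means of the groups did not overlap and were 8.64 genes apart, whereas single barcodes ranged from 0 to 16 in testes and from 0 to 3 in TOs. The exact two-sided permutation test gave p = 0.333, the smallest that 2 libraries against 2 allow. The background in Leydig panel barcodes at that depth was 0.172 and 0.119 genes in TOs and 0.102 and 0.0526 in testes.

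Among the genes of the rule, Cdh5 was found in 92.7% and 96.8% of the passing TO barcodes, Egfl7 in 51.2% and 62.8%, Pecam1 in 41.5% and 34%, and Kdr in 17.1% and 7.45%. Tie1, Vwf and Cldn5 had 0 UMIs in them, and a count of 0 allows up to 10 CPM in TO replicate 1 and 3.5 CPM in TO replicate 2. Of the 135 barcodes, 133 had exactly 2 genes of the rule. When the rule was applied anew to kept barcodes thinned to 1500 UMIs, 13 TO barcodes and 73 testis barcodes passed. The 73 need not be the EC members, since the UMIs of Wt1 were thinned too. The thinning left out 121 kept barcodes of TO replicate 1 and 24 of TO replicate 2. The 135 barcodes held Dcn in 92.7% and 93.6%, Nr2f2 in 87.8% and 96.8% and the actin gene Acta2 in 78% and 56.4%. In the stromal panel barcodes Cdh5 had 78.1 and 94.4 CPM in TOs and 52.7 and 70.4 CPM in testes. The endothelial label thus did not hold for these TO barcodes, and they are called only by the rule they passed. Their share of kept barcodes was 0.381% and 0.993% (95% exact binomial intervals 0.274 to 0.517 and 0.803 to 1.21), and that of the EC members in testes was 0.426% and 0.268% (0.312 to 0.568 and 0.178 to 0.387). These intervals cover counting error only.

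A single TO barcode carried the endothelial genes. In TO replicate 1 it had 10829 UMIs, 26 of the 33 identity genes, 4 of the 5 rule genes (9 UMIs of Pecam1, 11 of Cdh5, 4 of Kdr and 12 of Egfl7), 12 UMIs of Cldn5 and 21 of Gja4, a connexin gene of arterial endothelium. It failed the rule by 3 UMIs of Wt1, and it was the only one of the 20222 kept TO barcodes with at least 8 identity genes, against 265 of 21262 testis barcodes. It held 12 of the 14 kept Cldn5 UMIs of its library.

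**Figure D2:**
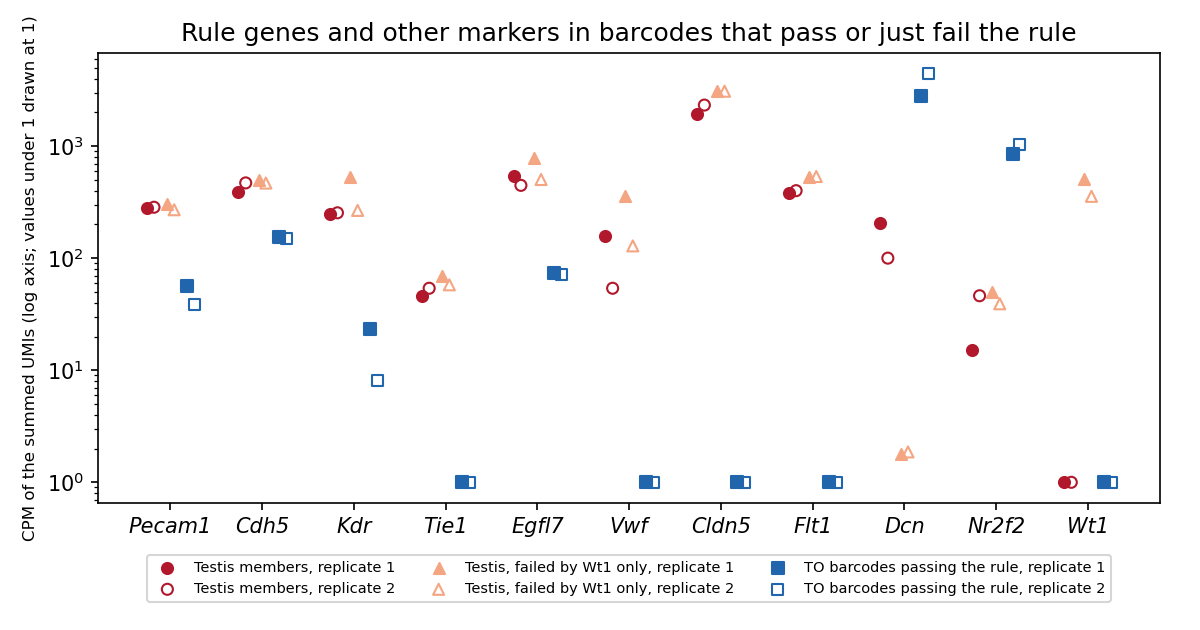
CPM on a log axis of rule genes and other markers in the summed EC members, the testis barcodes failed by Wt1 alone and the TO barcodes that passed, with 1 point per replicate (values under 1 CPM are drawn at 1). Cldn5, Flt1, Tie1 and Vwf are present in both testis sets and at 0 in the TO barcodes, where Dcn and Nr2f2 are above both testis sets.

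To ask which genes set the EC members apart within the testis, their UMIs were summed per library and compared with the sums of 5 other somatic classes, each assigned by a panel of 5 marker genes (Sertoli, Leydig, macrophage, smooth muscle and peritubular myoid, and stromal). edgeR's quasi-likelihood test with the library as a block was used, and calls needed an adjusted p (Benjamini-Hochberg) under 0.01 with a log2 fold change above 1 or below -1. Genes used by the rule or the panels were left out of it. Of 15182 genes tested, 510 were higher in the EC members, 3.36% of those tested, and 250 were lower, 1.65%. With library sizes in place of TMM factors the split was 605 higher and 148 lower, as the median log2 fold change of all genes moved from -0.14 to 0.08. Of the 31 identity genes tested, 30 were higher and none lower, with a median log2 fold change of 6.73, and Tal1, a transcription factor gene shared with blood cells, had 4.66 ± 1.31 (SE) at an adjusted p of 0.0316. Sox7 and Plvap did not pass the filter on low counts, so no test was made for them. A gene scarce in the other classes could pass that filter only through the EC sums, so that the counts and medians over tested genes, here and in the lists that follow, are descriptions. Without the filter 32 of the 33 identity genes were higher, against 2.37% of 25641 genes. In each testis library alone, all 31 were above the mean of the other classes.

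Cldn5, the claudin of endothelial tight junctions, led these genes. It had 1952 and 2326 CPM in the EC members and 10.8 and 3.17 CPM in the other 5 classes pooled. Against the mean of the classes, not their pool, the fitted log2 fold change was 10.20 ± 0.33 (SE, edgeR adjusted p = 2.29e-13). In testis replicates 1 and 2 taken alone, the log2 difference from that mean was 8.42 and 9.37. Cldn5 lies at chr16:18776847-18778262 on the plus strand. Ptprb, the vascular endothelial phosphatase VE-PTP, had 553 and 555 CPM against 3.94 and 0.679 CPM. Emcn, the sialomucin endomucin, had 340 and 647 CPM against 3.94 and 5.09 CPM. Esam, an adhesion molecule of endothelial junctions, reached 644 and 670 CPM, and Ly6c1, a surface antigen also of monocytes, 766 and 462 CPM. Esam (log2 fold change 6.73) and Ly6c1 (6.14) were not among the 10 leading genes. These had the largest folds at 100 CPM or more in both libraries. They held Cldn5, Ptprb, Emcn and the transcription factor genes Erg (162 and 108 CPM) and Sox18 (152 and 216 CPM). Erg and Sox18 had log2 fold changes of 7.95 and 8.51. Myct1, Adgrl4, Mmrn2, Abcb1a and Car4 completed the 10 leading genes, at log2 fold changes from 7.88 to 9.01. In all of them both libraries of EC members were above each of the other classes' sums, and the fitted sizes depend on sums near 0 in those classes.

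Upstream sequences are shown for the 4 identity genes with the highest CPM among those higher in EC members with an entry in the RefSeq promoter table of GRCm38.p6, which held 17 of the 33 identity genes. They are the 250 bases before the start, 5′ to 3′ on the strand of the gene. Capitals mark CAGGAAG or its reverse complement CTTCCTG, a core that ETS factors such as ERG and FLI1 can bind. The windows are chr16:18776597-18776846 (plus strand) for Cldn5, chr15:75048838-75049087 (minus strand) for Ly6c1, chr3:137340828-137341077 (plus strand) for Emcn and chr1:194938571-194938820 (plus strand) for Cd34.
Cldn5: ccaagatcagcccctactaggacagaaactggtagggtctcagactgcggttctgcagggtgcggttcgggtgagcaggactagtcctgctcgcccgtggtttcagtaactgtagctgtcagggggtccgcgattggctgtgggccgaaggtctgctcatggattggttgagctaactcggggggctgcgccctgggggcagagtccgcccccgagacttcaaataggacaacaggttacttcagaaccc
Ly6c1: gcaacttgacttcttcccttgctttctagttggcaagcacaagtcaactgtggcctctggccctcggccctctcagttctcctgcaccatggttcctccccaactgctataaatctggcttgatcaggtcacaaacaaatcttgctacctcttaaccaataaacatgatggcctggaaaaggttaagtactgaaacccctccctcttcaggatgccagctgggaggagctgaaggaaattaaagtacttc
Emcn: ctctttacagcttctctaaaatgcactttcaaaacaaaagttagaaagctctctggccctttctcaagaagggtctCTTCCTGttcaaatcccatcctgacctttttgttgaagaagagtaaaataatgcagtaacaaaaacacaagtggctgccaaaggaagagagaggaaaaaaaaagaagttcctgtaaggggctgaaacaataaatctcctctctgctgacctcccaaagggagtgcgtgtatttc
Cd34: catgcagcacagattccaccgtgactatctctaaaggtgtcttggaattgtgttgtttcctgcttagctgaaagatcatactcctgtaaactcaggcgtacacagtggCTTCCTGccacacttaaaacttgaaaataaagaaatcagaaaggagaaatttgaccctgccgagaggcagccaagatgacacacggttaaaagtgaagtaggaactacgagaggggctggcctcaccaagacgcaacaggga
Of these windows, those of Emcn and Cd34 held the letters once each and those of Cldn5 and Ly6c1 did not. CAGGAAG or CCGGAAG stood on either strand in 7 of the 16 windows of identity genes higher in EC members (43.8%) and in 4547 of 27025 windows of all genes (16.8%). All 7 held CAGGAAG, which 10.5% of all windows had, and none held CCGGAAG, which 7.05% had. A match describes the letters in these windows and no binding.

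Among the transport and barrier genes, 8 of 9 were higher in EC members (background 3.36%) and none was lower, with a median log2 fold change of 3.78. Abcb1a, the drug efflux pump P-glycoprotein, had 294 and 439 CPM against 1.43 and 1.02 CPM in the other classes pooled. Abcg2, a second efflux pump, had 538 and 693 CPM against 23.1 and 16.1 CPM. Slc7a5, the subunit of a large amino acid transporter, had 695 and 1009 CPM against 192 and 278 CPM pooled and 301 and 512 CPM in the Leydig class. Its log2 fold change against the mean of the classes was 3.18 ± 0.24 (edgeR adjusted p = 1.02e-08). Mfsd2a, a lipid transporter, Slco1a4, an organic anion carrier, Slc2a1, the glucose transporter GLUT1, and the junction adaptor Tjp1 also rose. Ocln, occludin, had 25.4 and 15.4 CPM and an adjusted p of 0.0238. The efflux pumps, Mfsd2a, Slco1a4 and Slc2a1 were above each of the other classes in its own contrast, whereas Slc7a5 and Tjp1 were not.

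Of the VEGF, TIE and TGF-beta family receptors outside the rule, 7 of the 8 tested were higher in EC members (background 3.36%) and none lower. Flt1, Eng and Tek among them were already counted with the identity genes. Flt1, the VEGF receptor that also acts as a decoy, had 380 and 401 CPM against 3.85 and 2.15 CPM. Eng, the co-receptor endoglin, had 406 and 308 CPM, and Nrp1, a VEGF co-receptor found in many cells, 228 and 316 CPM with a log2 fold change of 1.60, although the macrophage class had 497 and 650 CPM. Tek, the angiopoietin receptor, Acvrl1, Bmpr2 and Tgfbr2 rose as well, and Nrp2 had a log2 fold change of 0.98 at an adjusted p of 0.0852. For Notch, 6 of 8 tested genes rose (background 3.36%). The ligand genes Dll4 (65.9 and 69.3 CPM) and Jag2 (81.1 and 84.7 CPM) were higher than in each other class. Jag1, the receptor gene Notch1 and the target genes Hes1 and Hey1 rose against the mean of the classes. Hey1 is counted again with the arterial genes below.

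**Figure D3:**
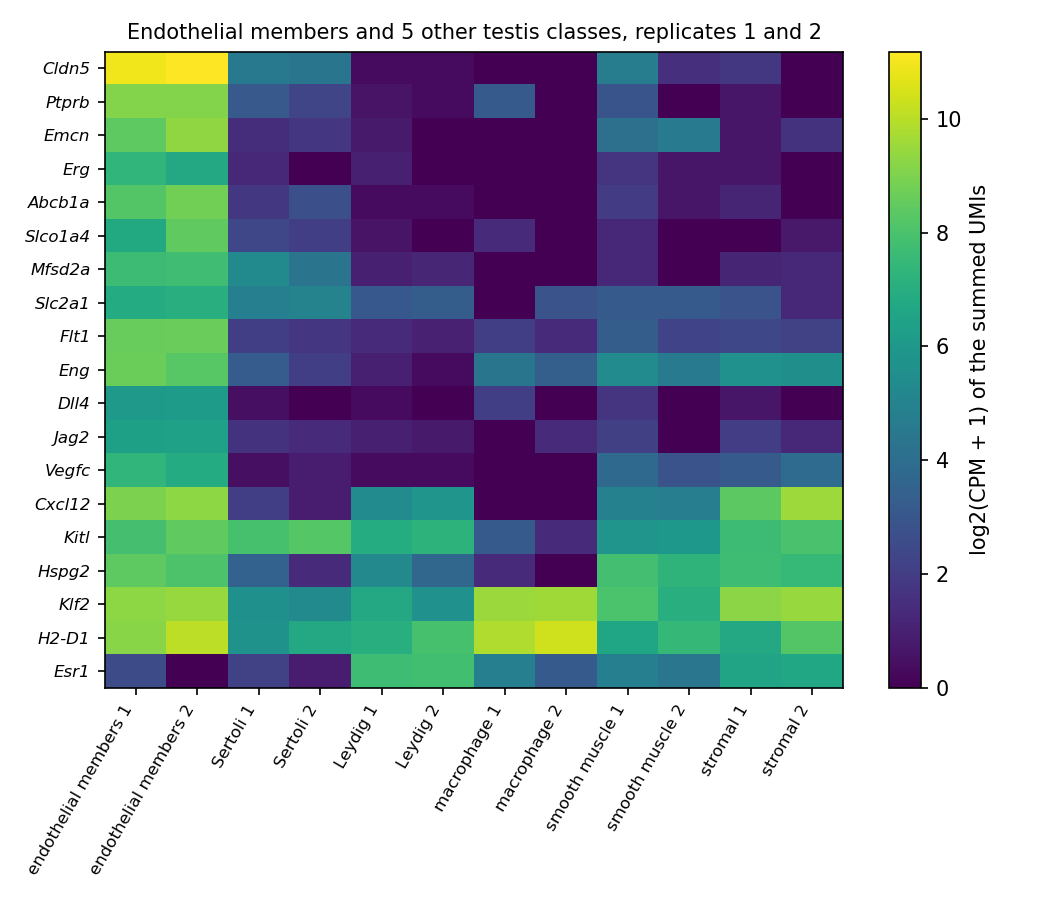
Colour shows log2(CPM + 1) of the summed UMIs of selected genes (rows) in the EC members and 5 other testis classes of replicates 1 and 2 (columns). Cldn5 to Vegfc are brightest in the EC member columns, whereas Cxcl12, Kitl, Klf2 and H2-D1 are as bright in stromal, Sertoli or macrophage columns.

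Genes of signals to neighbouring cells were mixed. Of 11 such genes tested, 4 were higher in EC members (background 3.36%). Cxcl12, a chemokine gene, had 497 and 616 CPM, next to 329 and 740 CPM in the stromal class. Kitl, the KIT ligand gene, had 238 and 347 CPM, next to 240 and 301 CPM in Sertoli panel barcodes. Those values overlap between the classes, and the calls are against the mean of the 5 classes. Vegfc, the lymphatic growth factor gene, had 162 and 116 CPM against 3.85 and 3.62 CPM pooled and was above each class. Edn1, the endothelin 1 gene, had 65.9 and 38.5 CPM. Gdnf and Fgf2, factors for spermatogonial stem cells, had no UMI in the EC members, where a count of 0 allows up to 15.2 and 23.1 CPM.

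Of 9 basement membrane genes, 5 were higher (background 3.36%). Sparc, a matricellular protein gene, was the most abundant with 5781 and 4691 CPM, and it also had 3416 and 2040 CPM in the other classes pooled. The type IV collagen genes Col4a1 (456 and 239 CPM) and Col4a2 (370 and 324 CPM), the perlecan gene Hspg2 (335 and 270 CPM) and Lama4, the laminin chain of vessels, rose too. None of the 5 was called against every other class in its own contrast. In the shear stress and immediate-early list only Klf2, a flow-responsive transcription factor gene, was called among 9 genes (614 and 701 CPM), and the macrophage class had 730 and 768 CPM. Ier2, Fos and Junb had log2 fold changes of 0.96, 0.96 and 0.63. The MHC class I genes H2-K1, H2-D1 and B2m rose, by log2 fold changes of 1.32, 1.73 and 1.64 (background 3.36%), and the 4 other MHC genes of the list did not pass the test. In each library all 3 were higher still in the macrophage class, where H2-K1 had 1385 and 1145 CPM against 1080 and 1063 CPM in the EC members, and none was called against each class. None of the 5 hormone receptor genes passed the test, and Esr1, an estrogen receptor gene, had 5.07 CPM and 0 against 96.2 and 119 CPM (adjusted p = 0.0331).

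Vessel beds were described by genes of arteries, capillaries and veins. Gja4 had 309 and 247 CPM, but it was found in only 10 of 46 and 7 of 28 EC members, so its UMIs lay in few barcodes. Nr2f2, the transcription factor gene of venous identity, was found in 2 and 5 EC members, and no EC member held both, whereas 3 and 7 of the barcodes failed by Wt1 alone did. Nr2f2 was not particular to endothelium here. It had 15.2 and 46.2 CPM in the EC members, against 284 and 318 CPM in the other classes pooled and 632 and 764 CPM in the smooth muscle class. At least 1 of the 8 arterial genes was found in 19 and 16 EC members, at least 1 of 7 capillary genes in 25 and 18, and at least 1 of 7 venous genes in 8 and 8. Rgcc and Car4, genes of capillary endothelium, led the capillary list with 172 and 347 CPM and 167 and 239 CPM, and both were higher than in each other class. Fabp4, another gene of that list, had 0 and 30.8 CPM in EC members and 82.5 and 340 CPM in the smooth muscle class, and Cd300lg had 45.6 and 7.70 CPM in 9 and 1 EC members, and neither was called. Of the venous genes, Ephb4, the receptor gene for ephrin B2, had 25.4 and 38.5 CPM in 5 and 5 EC members and was the one gene called higher of 3 tested (log2 fold change 3.28 ± 0.73, edgeR adjusted p = 0.00596). Of the arterial genes 5 of 6 tested and of the capillary genes 2 of 5 tested were called higher (background 3.36%). The filter set these numbers in part, since 4 of the 7 venous genes were too low to be tested, and Sema3g, an arterial gene with 45.6 and 53.9 CPM, had no UMI in the other classes. Selp, Lrg1 and Sele had at most 1 UMI-positive barcode in a library, and Ackr1 and Bst1 were at 0. At least 1 of 7 lymphatic genes was found in 7 and 2 EC members, through Reln (3 and 1 EC members), Flt4 (2 and 1) and Pdpn (2 and 0). No EC member had 2 or more of them, and Prox1, Lyve1, Ccl21a and Mmrn1 were at 0 in both libraries. Of the tip cell genes, Pdgfb, the growth factor gene for pericytes, had 112 and 116 CPM and Apln 91.3 and 77 CPM, and 4 of the 7 tested were called higher (background 3.36%). Esm1 had 10.1 and 123 CPM, which differ by over 10-fold between the libraries with 2 and 6 positive barcodes.

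**Figure D4:**
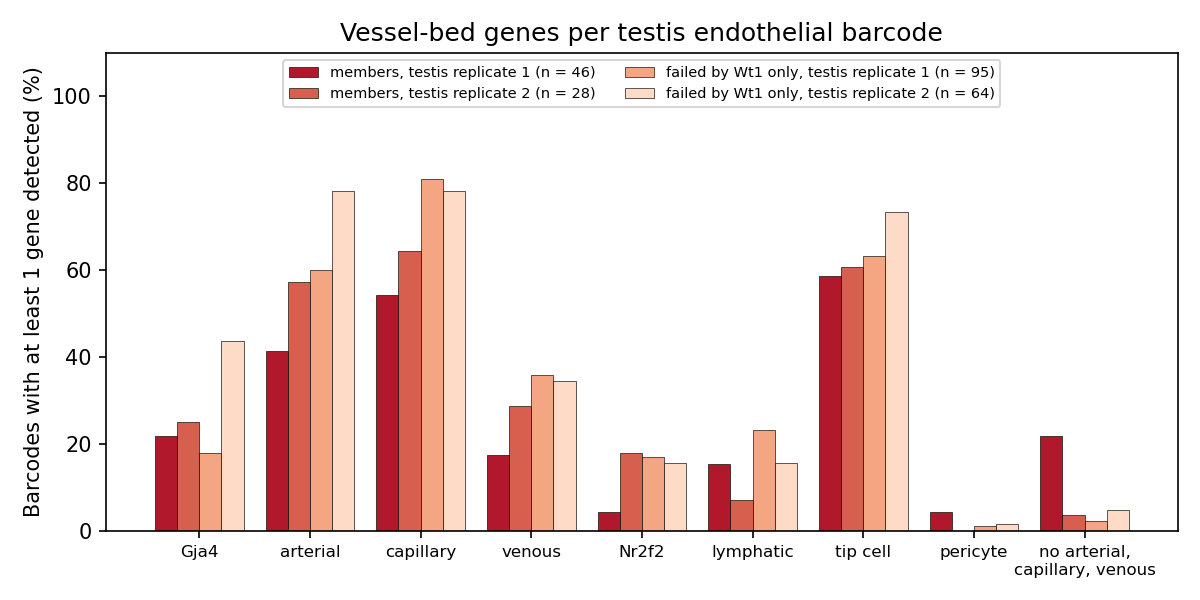
Percentage of testis barcodes (y axis) with at least 1 gene of each list or with Gja4 or Nr2f2 detected, for the EC members and the deeper barcodes failed by Wt1 alone in each replicate (bars). Capillary and arterial genes were found in more EC members than venous genes in both replicates, and the shares are not adjusted for depth.

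Of the 6 cell division genes, at least 2 were found in 12 and 10 EC members. Top2a, a topoisomerase gene of dividing cells, had 132 and 116 CPM and was called higher (log2 fold change 1.30, background 3.36%), and the other 5 did not pass the test. Germ cell RNA was present throughout. The protamine gene Prm1 had 1760 and 6247 CPM in the EC members and was found in 100% and 96.4% of them, and in the other 5 testis classes it had 773 to 6364 CPM. The 6 spermatid genes summed to 4731 and 22933 CPM in the EC members, and none of them passed the test against the other classes. Ddx4, a germ cell marker, was found in 39.1% and 35.7% of the EC members.

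To compare endothelial genes between TOs and testes without the rule, UMIs were summed per library over all kept barcodes with Vim detected and Ddx4 at 0, the genes by which the study split somatic from germ cells (6817 and 7334 TO barcodes, 1624 and 1003 testis barcodes, of which 24 and 15 were EC members). In such sums fewer cells of a type and less RNA per cell cannot be told apart. With the same edgeR thresholds, 3587 of 20004 genes were lower in TOs (17.9%) and 424 were higher (2.12%). The higher count was 125 without testis replicate 1, 141 without testis replicate 2, 216 without TO replicate 2 and 390 without TO replicate 1, and 801 with DESeq2. Of the 33 identity genes, 23 fell and none rose, with a median log2 fold change of -3.66, and in 29 of them both testis sums were above both TO sums, as in 38.3% of all genes tested.

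Cldn5 had 0.259 and 0.0478 CPM in TOs and 177 and 249 CPM in testes, a log2 fold change of -10.40 ± 0.61 (SE, edgeR adjusted p = 8.24e-05). Myct1, a target gene of MYC in endothelium, had 4 UMIs and 0 in TOs and 14.9 and 22.7 CPM in testes. Cyyr1, a cysteine and tyrosine rich protein gene, had 0.159 and 0.0637 CPM in TOs against 27 and 31.9 CPM in testes. Flt1 had 0.239 and 0.0637 CPM in TOs against 37.2 and 40.2 CPM, and Adgrl4, an adhesion G protein-coupled receptor gene, 0.0996 and 0.0159 CPM against 13.5 and 15.3 CPM. In these 5 genes the groups were far apart in every library, and the log2 fold changes ran from -10.40 to -7.87. Their sizes depended on single libraries. With 1 library left out at a time, Cldn5 ran from -11.83 to -9.62, Myct1 from -11.76 to -7.75 and Adgrl4 from -9.28 to -7.06.

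Of the 10 identity genes that did not pass the test, 5 had the smallest changes. Cd34, a sialomucin gene also of fibroblasts, had 107 and 183 CPM in TOs and 104 and 127 CPM in testes. Ly6c1 had 79.3 and 37.4 CPM against 82.3 and 62.9 CPM, Lmo2 had a log2 fold change of -0.73 and S1pr1 one of -1.26. Robo4, a guidance receptor gene, had 12.1 and 5.91 CPM in TOs against 7.25 and 4.76 CPM. Within TOs, Cd34 had 308 and 334 CPM in the stromal panel barcodes, Ly6c1 had 196 and 70.8 CPM in them, and Robo4 had 32.5 and 35.2 CPM in Sertoli panel barcodes. Plvap, the diaphragm protein gene of fenestrated endothelium, had 7.19 and 6.39 CPM in TOs against 1.14 and 2.29 CPM in testes and did not pass the test (adjusted p = 0.0166), and in TOs it had 17.7 and 20.7 CPM in the Leydig panel barcodes.

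**Figure D5:**
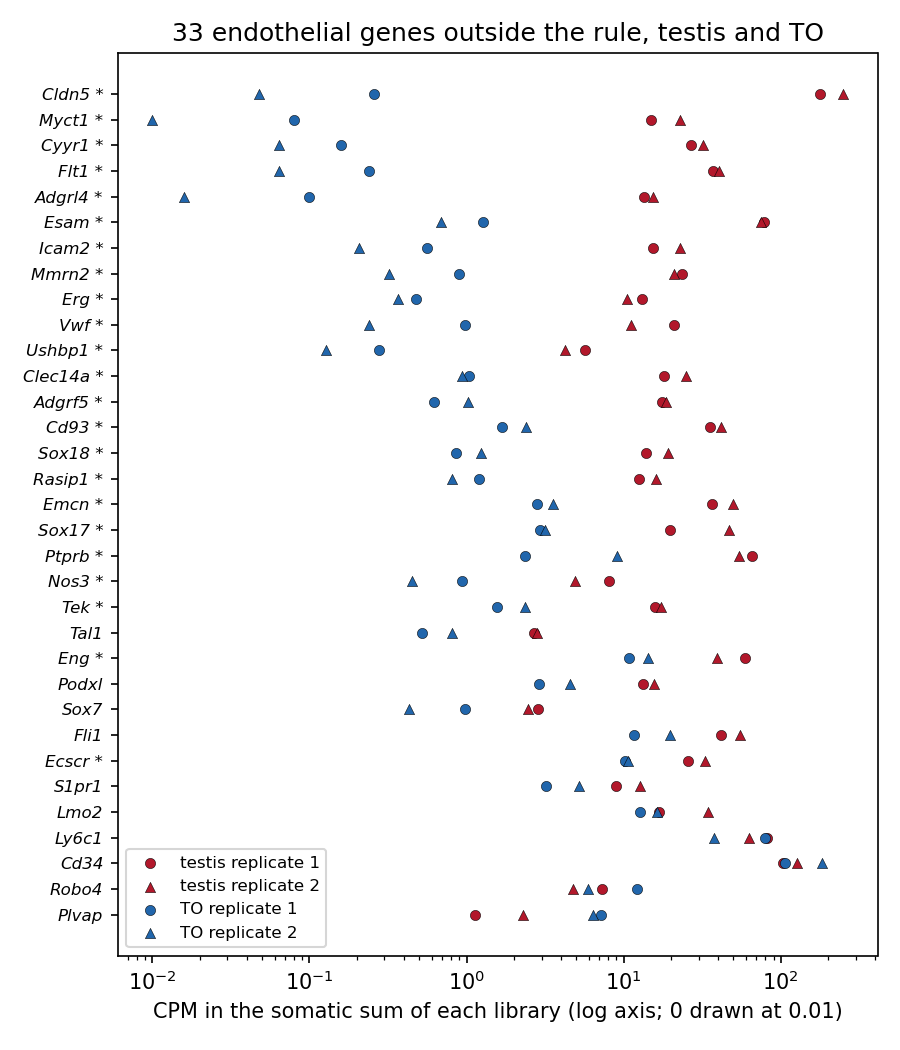
CPM on a log axis of the 33 identity genes (rows, ordered by log2 fold change) in the somatic sum of each testis and TO library, with 0 drawn at 0.01 and an asterisk at genes called lower in TOs. The testis points lie right of both TO points for 29 genes, and Cd34, Ly6c1 and Robo4 overlap.

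Of the genes of the rule, Pecam1 (4.06 and 2.36 CPM in TOs against 17.8 and 22.9 CPM in testes), Kdr, Tie1 and Egfl7 were lower in TOs, and Cdh5 was not (26 and 52.9 CPM against 35.7 and 46.5 CPM). Of 9 barrier and transport genes, 4 were lower (Abcb1a, Abcg2, Slco1a4 and Mfsd2a), against 17.9% of all genes. Of 11 receptors, 6 were lower (Flt1, Kdr, Tie1, Tek, Eng and Flt4), where Flt1, Tek and Eng are also identity genes and Kdr and Tie1 genes of the rule. Of 8 tested Notch genes, 3 were lower (Dll4, Jag2 and Notch4) and Hes1 was higher. Of 8 arterial genes 3 were lower (Gja4, Sema3g and Bmx) and of 7 capillary genes 2 (Car4 and Cd300lg), and Car4 had 0 UMIs in both TO sums against 20.6 and 26.1 CPM. Lower too were 2 of 7 tip cell genes, 1 of 11 genes of signals to neighbouring cells and 1 of 9 basement membrane genes. The median log2 fold changes of these 3 lists were -0.06, 0.63 and 0.61. Of 9 shear stress and immediate-early genes, 3 were higher (Ier2, Junb and Fos) and none was lower. Nr2f2 was higher in TOs (585 and 797 against 270 and 285 CPM), where it was found in most barcodes that passed the rule. Of 6 pericyte genes, 2 were lower (Rgs5 and Higd1b) and 1 was higher (Kcnj8), against 17.9% and 2.12% of all genes. Rgs5 had 0.0598 and 0.207 CPM in TOs against 47.6 and 44.3 CPM in testes. Notch3, Cspg4 and Pdgfrb did not pass the test, with log2 fold changes of -1.48, 0.05 and 0.12.

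The choice of barcodes mattered for this count. In sums over barcodes assigned to a somatic panel or passing the rule, 8 of the 33 identity genes were lower in TOs, where 17.8% of all genes tested were, so that the list stood near the background there. These sums leave out the unassigned barcodes, among them 190 of the 265 testis barcodes with at least 8 identity genes. The unassigned barcodes held 75.9% and 83.9% of the kept Cldn5 UMIs of testis replicates 1 and 2. Over all kept barcodes 18 identity genes were lower, where 30.4% of all genes were. In that fit 3 were higher, where 5002 of 23281 genes were. The spermatid genes summed to 4769 and 21102 CPM in the testis sums and to 0.538 and 1.51 CPM in the TO sums. When genes with a higher CPM in all kept testis barcodes than in the testis sums were left out, an alternative chosen after seeing the data, 106 of 11067 genes were called, 86 of them lower in TOs (0.777%), and 16 of the 23 identity genes were lower in that fit too.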

How the data were processed

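The authors made 10x Genomics libraries and, per the labels, counted reads with Cell Ranger 7.1.0 on mm10. The deposited files hold UMI counts for each barcode that were neither filtered by quality nor normalized. The members and gene lists were chosen with earlier results of these data known. Barcodes were filtered by the limits of the study. Its doublet removal with DoubletFinder was replaced by Scrublet (scanpy 1.11.5) as an alternative, which marked 9.46% to 11.7% of the barcodes of a library. Classes took a barcode when at least 3 of their 5 panel genes were detected, more than for any other panel.

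UMIs were summed per library or per library and class and compared by quasi-likelihood tests of edgeR 4.0.16 under R 4.3.3, with TMM factors, the filterByExpr filter and Benjamini-Hochberg adjustment over all genes tested. CPM were scaled to the total UMIs of each sum. Both fits were tested on simulated data with known changes.

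Named genes were those of the rule with Vwf, up to 4 per list with the highest mean CPM in EC members, the 10 largest folds among genes higher in members with at least 100 CPM in both libraries, and the 5 largest and 5 smallest changes of identity genes between TOs and testes. Other genes named were chosen after their values were seen. Thinning drew 1500 UMIs per barcode without replacement. Alternatives covered filters, doublets, normalization, DESeq2 1.42.0, the replicate block, gates and left-out libraries. Tables and plots were made with pandas 2.3.3, scipy 1.17.1, matplotlib 3.10.9 and numpy 2.4.6 under Python 3.11.15. Results for a few genes of the lists are not reported here.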

Additional observations from a re-analysis of the deposited data

How the results depend on the processing

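The testes had 74 EC members, against 60 with doublets removed and 50 with at least 3 rule genes, and 233 without the condition on Wt1 or 265 by at least 8 identity genes in place of the rule (both chosen after seeing the data). The TO count of 135 became 2 with at least 3 rule genes, 13 after thinning to 1500 UMIs (73 in testes) and 1 by at least 8 identity genes. The difference in identity genes per member was 8.64 at 1500 UMIs, 13.2 without thinning and 12.2 at 3000 UMIs. Between TOs and testes, 4011 genes were called, against 12081 over all kept barcodes, 6547 at an adjusted p under 0.05 with no fold threshold and 106 when genes richer in all testis barcodes than in the somatic sums were left out (chosen after seeing the data). Of the 33 identity genes 23 were lower (17.9% of all genes), and 8 with panel-assigned barcodes (17.8% of all genes), near the background. With 1 library left out at a time the calls ranged from 2362 (without testis replicate 1) to 3098, with 2399 without TO replicate 2 and 2851 without testis replicate 2, and 17 to 22 identity genes were lower. The cause was not tested. Replicate numbers are not said to pair libraries (correlation of deviations 0.171 over 20004 genes). The replicate block gave 4669 calls and 25 identity genes lower, where 3943 of all 20004 genes tested were lower. For EC members against classes, 760 genes were called, 516 with no replicate block and 1407 at an adjusted p under 0.05 with no fold threshold. Without the condition on Wt1, 1936 were called, with 32 of 32 identity genes and 1438 of 14908 genes higher. When each class had to differ in its own contrast, 146 were called, with 25 identity genes and 130 of 15182 genes higher. Without 1 testis library no test was left, and the median difference of the identity genes was 5.93 or 5.51 in log2 CPM. The 28 members of testis replicate 2 hold 129815 UMIs, so that genes under 23.1 CPM were within the limit that a count of 0 allows.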

Other observations

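Further genes led the EC members outside the lists, chosen here after their values were seen. Tm4sf1, a tetraspanin-like membrane protein gene, had 745 and 1233 CPM in the EC members (log2 fold change 6.85 ± 0.20, edgeR adjusted p = 1.25e-14). Ctla2a had 629 and 524 CPM, Mecom, a transcription factor gene, 350 and 377 CPM, Gimap6, a GTPase gene, 218 and 385 CPM and Palmd 117 and 247 CPM, and all 5 were above each of the other 5 classes. In the other direction, the receptor gene Notch2 had no UMI in the EC members, where a count of 0 allows 15.2 and 23.1 CPM, and 12.5 to 90.1 CPM in the other classes.

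Erythrocyte genes were uneven between the testis replicates. Hbb-bs, a beta-globin gene, had 275 CPM (154 UMIs in 2 barcodes) in the testis replicate 1 barcodes that failed by Wt1 alone and 0 in those of testis replicate 2. In the somatic sums of testis replicates 1 and 2, Hbb-bs had 13.1 and 0.882 CPM and Hba-a1 had 5.68 and 0.705 CPM.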
